A study of Mus musculus with 8 samples.

Results

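The genes described here are 10 genes linked to the endothelial tip cell, the cell that leads a growing vessel sprout: Esm1, Apln, Aplnr, Prnd, Kcne3, Cxcr4, Plvap, Pde2a, Igfbp3 and Ramp3. A gene was taken where a probe set of the array was annotated with that gene symbol alone, and all 10 were found this way among the 22840 genes measured. They were chosen by their known link to tip cells and, for some, by a high rank in the difference between the groups reported below. Their differences between the groups are therefore given as a description and were not tested.

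Transcript levels had been measured in 8 tumours, each on 1 array, with 4 tumours in either group. The tumours grew from fragments of MT-ret melanoma implanted into C57BL/6N mice at the ventral flank. MT-ret mice carry a ret oncogene driven by the metallothionein promoter and develop melanoma. One group (anti-Ang2) had received an antibody that blocks Ang2, a secreted vessel-destabilising ligand encoded by Angpt2, and the other group had received IgG. Antibody was given from day 7 after implantation until the tumour was taken out. Age and sex of the mice, and the number of donor tumours behind the fragments, are not given in the labels. The labels do not say that each tumour came from a separate mouse, so that p-values measure the spread between these samples. Whole tumour RNA was used, so that fewer cells of a type and less RNA per cell cannot be told apart for any gene below.

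In a sprout, tip cells extend filopodia and migrate towards vascular endothelial growth factor (VEGF), while the stalk cells behind them divide, form the lumen and are kept from the tip fate by Notch signalling. Tip cells secrete factors such as Esm1 and apelin, and carry receptors such as Cxcr4 that stalk cells carry less of. The apelin receptor Aplnr lies on the neighbouring endothelium, including veins, and Plvap forms the diaphragms of fenestrated and tumour vessels, so that neither marks the tip alone. The tip is also a known source of Ang2. The comparison addresses what blocking Ang2 did to the transcripts of the primary tumour.

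Values are log2 intensities, and differences are anti-Ang2 minus IgG. Over all genes the arrays had medians from 6.09 to 6.15. Of the 10 genes, 9 lay above the median of all gene means (6.10), from percentile 54.2 for Prnd to percentile 94.8 for Igfbp3, and Ramp3 lay at percentile 48.7. The brightness of a probe set also depends on its probes, so these ranks order signals and not transcript numbers. With limma, 0 of 22840 genes (0%) had a Benjamini-Hochberg adjusted p under 0.05, and 1619 genes (7.09%) had an unadjusted p under 0.05. The smallest limma adjusted p of any gene was 0.254.

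Of the 10 tip cell genes, 9 had a difference above 0, where 53.5% of all genes did, and 7 did after quantile normalization or median centring, where Aplnr and Igfbp3 lay just below 0. The median difference was 0.48 for the 10 genes and 0.01 for all genes. The genes fell into 2 sets by size. Esm1, Prnd, Apln, Pde2a, Kcne3, Plvap and Cxcr4 were higher in anti-Ang2 tumours by 0.38 to 1.10, while Aplnr, Igfbp3 and Ramp3 had differences between -0.12 and 0.02. All 4 anti-Ang2 tumours lay above all 4 IgG tumours for 5 genes (Esm1, Prnd, Apln, Pde2a and Cxcr4), a pattern found in 2.28% of all genes. A difference of at least 0.5 was seen in 5 of the 10 genes and in 0.709% of all genes. Because this contrast had been used to choose the genes, nothing is read from these counts.

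**Figure D1:**
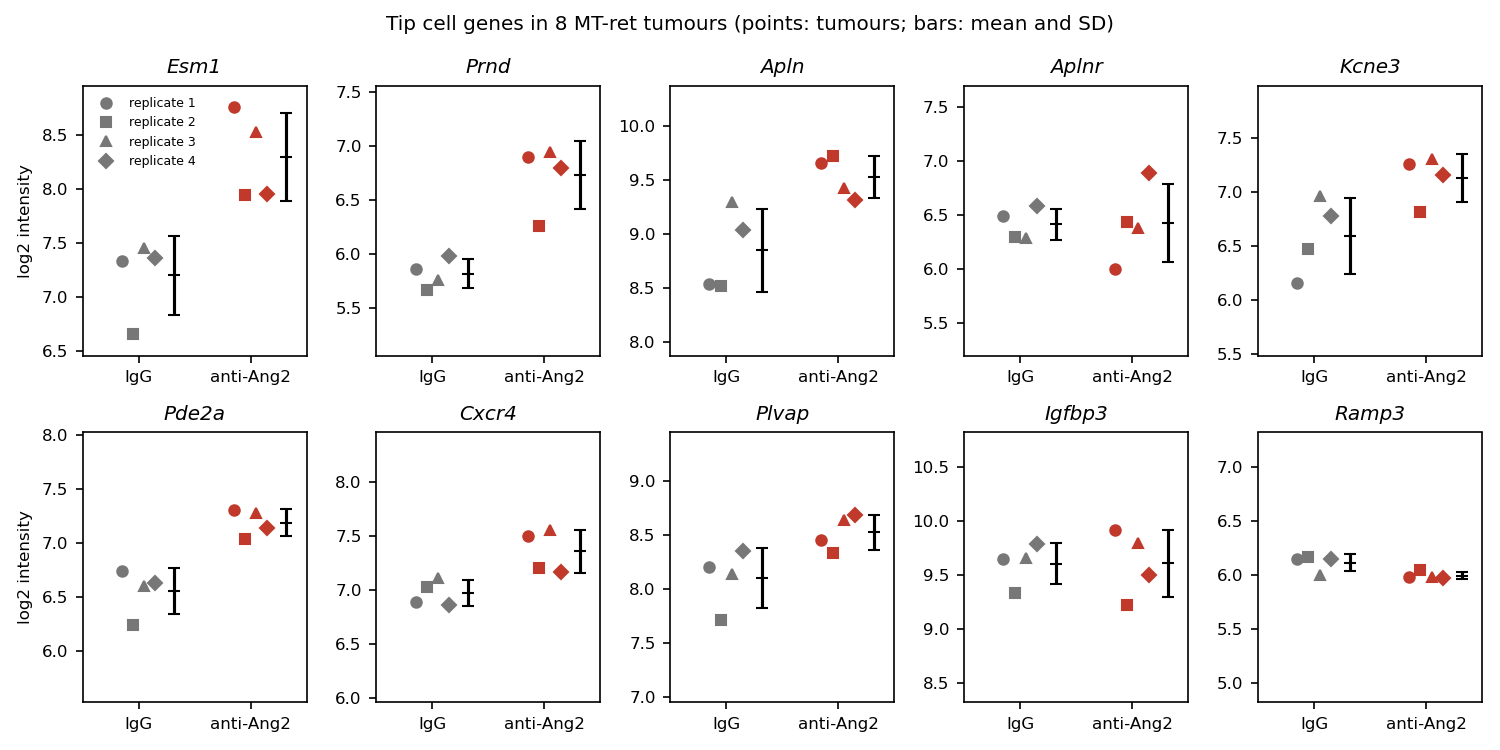
Log2 intensity (vertical axis, 2.5 units high in every panel) of each of the 10 tip cell genes in the IgG (grey) and anti-Ang2 (red) tumours; symbols mark the replicate number and bars the mean and SD of 4 tumours. In Esm1, Prnd, Apln, Pde2a and Cxcr4 the groups do not overlap, whereas in Aplnr and Igfbp3 the IgG tumours lie within the range of the anti-Ang2 tumours.

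The secreted products come first. Esm1 encodes endocan, a proteoglycan released by tip cells in response to VEGF (probe set 17290010, chromosome 13). Its log2 intensity was 8.76, 7.95, 8.53 and 7.96 in anti-Ang2 replicates 1 to 4, and 7.33, 6.66, 7.46 and 7.36 in IgG replicates 1 to 4. The lowest anti-Ang2 tumour lay 0.49 above the highest IgG tumour. IgG replicate 2 was low beside the other IgG tumours, which lay close together. The means were 8.30 ± 0.41 and 7.20 ± 0.37 (SD over 4 tumours), a difference of 1.10 (SE 0.22) or a fold of 2.14. It ranked 8 by size among all genes higher in anti-Ang2 tumours. Nothing is read from this rank, or from that of Prnd below, since a high rank had helped to choose some of the genes. The authors' deposited table gives ratios of group means of 2.16 for Esm1, 1.91 for Prnd and 1.57 for Apln.

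Apln encodes apelin, a peptide hormone secreted by tip cells that acts on Aplnr (probe set 17541378, chromosome X). Its intensity was 9.66, 9.73, 9.42 and 9.32 in anti-Ang2 replicates 1 to 4 and 8.54, 8.52, 9.30 and 9.04 in IgG replicates 1 to 4. The groups were separated by only 0.02, since IgG replicate 3 came close to anti-Ang2 replicate 4. IgG tumours spread more widely (SD 0.38) than anti-Ang2 tumours (SD 0.19). The difference was 0.68 (SE 0.18), a fold of 1.60.

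Igfbp3 encodes an insulin-like growth factor carrier protein found in the vessels and stroma of many tumours (probe set 17260474, chromosome 11). Its intensity was 9.91, 9.22, 9.79 and 9.50 in anti-Ang2 replicates 1 to 4 and 9.65, 9.33, 9.65 and 9.78 in IgG replicates 1 to 4. The groups overlapped almost entirely, with means of 9.61 ± 0.31 and 9.60 ± 0.19 (SD over 4 tumours). Its difference was 0.00 (SE 0.15), and it went from -0.10 without anti-Ang2 replicate 1 to 0.13 without anti-Ang2 replicate 2.

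Among the receptors, Cxcr4 binds the chemokine Cxcl12 and sits on tip cells, but also on many leukocytes and on some tumour cells (probe set 17226593, chromosome 1). It stood at 7.50, 7.21, 7.56 and 7.17 in anti-Ang2 replicates 1 to 4 and at 6.89, 7.03, 7.12 and 6.86 in IgG replicates 1 to 4. The groups did not overlap but were only 0.05 apart. The difference was 0.38 (SE 0.11), a fold of 1.31. Of 15 leukocyte markers, 8 were higher and 7 lower, the sum of their linear intensities ranged from 996 to 1300.4 with anti-Ang2 and from 991 to 1249 with IgG, and 8 of them, including Cd3e and S100a8, lay below the median gene. The part of leukocytes in the Cxcr4 value was not tested.

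Aplnr, the receptor of apelin, had level group means (probe set 17372725, chromosome 2). Its values were 6.00, 6.44, 6.38 and 6.89 in anti-Ang2 replicates 1 to 4 and 6.49, 6.30, 6.28 and 6.58 in IgG replicates 1 to 4. The lowest and the highest of the 8 tumours were both in the anti-Ang2 group, whose SD was 0.36 against 0.15 in IgG. The means were 6.43 and 6.41, with a difference of 0.02 (SE 0.16). The sign turned on single tumours, from -0.14 without anti-Ang2 replicate 4 to 0.16 without anti-Ang2 replicate 1.

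Ramp3 encodes a membrane protein that pairs with the calcitonin receptor-like receptor to form an adrenomedullin receptor (probe set 17247176, chromosome 11). Its intensity was 5.98, 6.04, 5.98 and 5.98 in anti-Ang2 replicates 1 to 4 and 6.15, 6.17, 6.00 and 6.15 in IgG replicates 1 to 4. Only IgG replicate 3 lay inside the range of the anti-Ang2 tumours. The difference was -0.12 (SE 0.08), and Ramp3 was the 1 gene of the 10 that lay lower in anti-Ang2 tumours as deposited.

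The remaining genes encode membrane proteins and an enzyme. Prnd encodes doppel, a membrane-anchored relative of the prion protein that is found in testis and in growing and tumour endothelium (probe set 17376549, chromosome 2). It stood at 6.91, 6.27, 6.95 and 6.80 in anti-Ang2 replicates 1 to 4 and at 5.86, 5.67, 5.76 and 5.98 in IgG replicates 1 to 4. The 4 IgG tumours lay within 0.31 of each other, below the median gene, and anti-Ang2 replicate 2 was the 1 anti-Ang2 tumour near them. The difference was 0.91 (SE 0.15), a fold of 1.88, and ranked 16 by size. A neighbouring probe set annotated with both Prnp, the prion protein gene next to Prnd, and Prnd was left out of the fit. That probe set had means of 8.74 ± 0.20 and 8.64 ± 0.19, a difference of 0.10.

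Kcne3 encodes an accessory subunit of voltage-gated potassium channels (probe set 17480641, chromosome 7). Its values were 7.26, 6.81, 7.31 and 7.16 in anti-Ang2 replicates 1 to 4 and 6.16, 6.47, 6.97 and 6.78 in IgG replicates 1 to 4. The groups overlapped through IgG replicate 3, which lay above anti-Ang2 replicate 2. The difference was 0.54 (SE 0.17), a fold of 1.46, and 0.40 without IgG replicate 1. That tumour had the lowest Kcne3 value and the highest mean of 16 skeletal muscle genes (9.47, where the other 7 tumours had 5.97 to 8.06).

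With the group means subtracted, the correlation of Kcne3 with the muscle mean over the 8 tumours was -0.97 by Pearson's r, with an exact permutation p of 0.00868. Spearman's rho was -0.86 (exact p = 0.0382), and r was -0.89 without the 2 tumours farthest from the median. For Kcne3 and the hypoxia mean, r was 0.80 (exact permutation p = 0.0399), rho 0.79 (exact p = 0.0382) and r 0.62 over 6 tumours. These were among 70 relations of the 10 genes with 7 marker lists, of which 6 had an exact p under 0.05 by r and 0 passed adjustment (adjusted exact p = 0.506 for all 6). The part of muscle in the Kcne3 difference was not tested.

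Plvap, the diaphragm protein of fenestrated endothelium (probe set 17510338, chromosome 8), stood at 8.45, 8.34, 8.64 and 8.69 in anti-Ang2 replicates 1 to 4 and at 8.21, 7.72, 8.14 and 8.36 in IgG replicates 1 to 4. IgG replicate 4 passed anti-Ang2 replicate 2 by 0.02, and IgG replicate 2 was low. The difference was 0.43 (SE 0.14), a fold of 1.34.

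Pde2a encodes a phosphodiesterase that breaks down cAMP and is stimulated by cGMP (probe set 17480880, chromosome 7, whose annotation text is cut short). It stood at 7.30, 7.03, 7.28 and 7.14 in anti-Ang2 replicates 1 to 4 and at 6.74, 6.24, 6.60 and 6.62 in IgG replicates 1 to 4. Both groups were compact, with SDs of 0.13 and 0.21, and the gap between them was 0.29. The difference was 0.64 (SE 0.12), a fold of 1.55.

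**Figure D2:**
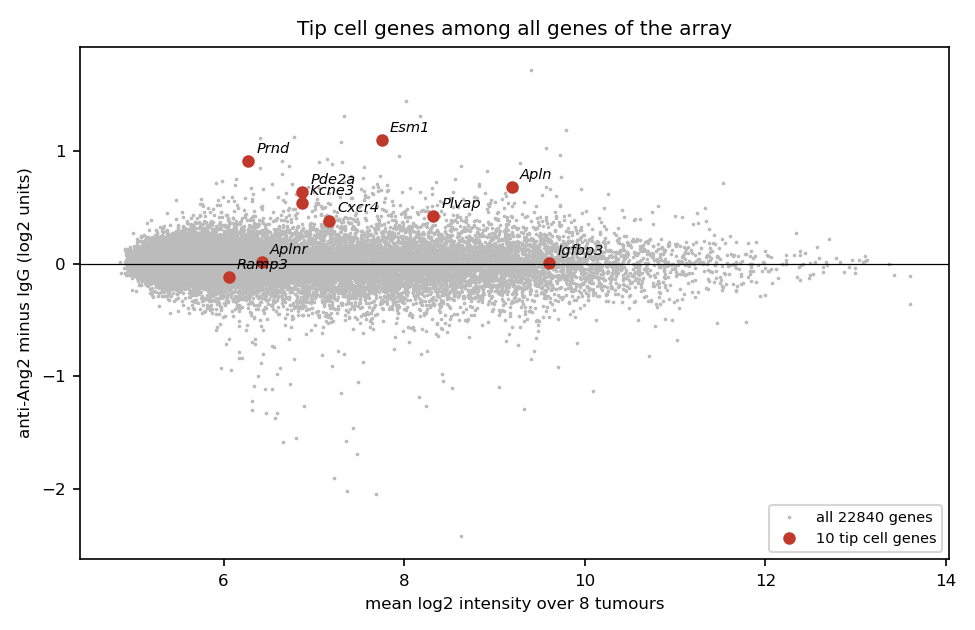
Difference between anti-Ang2 and IgG (vertical axis, log2 units) against mean log2 intensity over 8 tumours (horizontal axis) for 22840 genes in grey and the 10 tip cell genes in red. Esm1 (1.10) and Prnd (0.91) lie near the upper edge of the cloud, while Aplnr (0.02), Igfbp3 (0.00) and Ramp3 (-0.12) lie inside its dense middle.

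The bases before the transcription starts are shown for Esm1, Apln and Prnd, the secreted or surface proteins with the largest differences. The sequences are those of RefSeq on GRCm38.p6, and each holds the 250 bases before the start on the strand of the gene, at chr13:113209409-113209658 (plus strand), chrX:48034854-48035103 (minus strand) and chr2:131950611-131950860 (plus strand, the first of 2 starts of Prnd). Capitals mark the motifs searched.
Esm1: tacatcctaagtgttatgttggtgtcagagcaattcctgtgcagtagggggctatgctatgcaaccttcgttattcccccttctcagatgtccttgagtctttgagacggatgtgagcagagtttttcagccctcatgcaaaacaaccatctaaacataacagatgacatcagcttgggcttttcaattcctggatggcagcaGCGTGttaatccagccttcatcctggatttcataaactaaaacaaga
Apln: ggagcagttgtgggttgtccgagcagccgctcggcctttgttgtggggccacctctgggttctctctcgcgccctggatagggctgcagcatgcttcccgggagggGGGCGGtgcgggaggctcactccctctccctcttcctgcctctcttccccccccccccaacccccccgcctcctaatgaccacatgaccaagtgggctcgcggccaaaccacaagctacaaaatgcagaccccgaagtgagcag
Prnd: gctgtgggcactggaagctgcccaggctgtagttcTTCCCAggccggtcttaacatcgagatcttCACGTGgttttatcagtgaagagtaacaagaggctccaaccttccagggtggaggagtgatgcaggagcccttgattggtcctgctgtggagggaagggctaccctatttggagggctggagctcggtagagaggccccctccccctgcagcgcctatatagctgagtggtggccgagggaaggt

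The motifs were searched on both strands in windows that also held the 50 bases after the start. They were ACGTG or GCGTG (the core of the hypoxia response element), CCGGAAG (ETS factors), TGTTTAC (forkhead factors), TGAGTCA (AP-1), TGGGAA (RBPJ, the DNA-binding partner of Notch), GGGCGG (GC box) and, for the TATA box, the word TATAAA. The Esm1 window held GCGTG, beginning 47 bases before the start, and the Apln window held a GC box at 144 bases. The first Prnd window held the RBPJ word at 215 bases and, at 185 bases, a palindrome that reads as the hypoxia response element core on both strands. Windows were on hand for 8 of the 10 genes, with 14 starts, and Aplnr and Plvap had none.

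The hypoxia response element core was in 8 of the 14 windows (57.1%) and in 43.8% of all 32817 promoter windows. The GC box was in 5 of 14 (35.7%) against 35.6% of all windows, and the RBPJ word in 4 of 14 (28.6%) against 25.6%. The ETS word was in 1 window, that of Ramp3 (7.14% against 8.86% of all), and the TATA box in 1, that of Cxcr4 (7.14% against 13.6%). The forkhead and AP-1 words were in 0 of 14, where 3.65% and 5.20% of all windows held them. By gene, 7 of the 8 held the hypoxia core in at least 1 window, namely Esm1, Prnd, Kcne3, Cxcr4, Pde2a, Igfbp3 and Ramp3, and Apln did not. A gene with several starts has more chances to hold a word. No share by gene was taken over all genes, so the 7 of 8 cannot be set against the 43.8% of windows. Starts of 1 gene can overlap, as both Prnd windows do, so that the 14 windows are not independent.

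Vessel content was then set beside these values. The tumours expressed general endothelial genes: Cdh5, the endothelial cadherin, stood at percentile 90.7 of all gene means, Pecam1 (CD31) at 80.5 and Kdr, the main VEGF receptor, at 69.7, while 5 of 21 measured endothelial markers, among them Tek, Cldn5 and Icam2, lay below the median gene. Of the 21, 12 were higher and 9 lower in anti-Ang2 tumours, with a median difference of 0.05, or -0.02 without anti-Ang2 replicate 3 and -0.01 without anti-Ang2 replicate 4. The mean over the list was 7.03 ± 0.14 with anti-Ang2 and 6.96 ± 0.06 with IgG (SD over 4 tumours), and the summed linear intensity ranged from 4585 to 5323 and from 4475 to 5385. Pecam1 differed by 0.38 (SE 0.09), Cdh5 by 0.30 (SE 0.17) and Kdr by 0.23 (SE 0.14), none of which passed in limma (adjusted p = 0.473, 0.762 and 0.797). Among the 9 lower genes, Tek, the receptor gene of Ang2, differed by -0.12 (SE 0.13) and Vwf by -0.15 (SE 0.09). Neither passed in limma (adjusted p = 0.878 and 0.790).

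With the mean of the 21 endothelial genes subtracted on each array, 7 of the 10 tip cell genes remained above 0. The difference was 1.03 (SE 0.25) for Esm1, 0.84 (SE 0.11) for Prnd, 0.61 (SE 0.24) for Apln and 0.57 (SE 0.10) for Pde2a. Kcne3 had 0.47, Plvap 0.36 and Cxcr4 0.32, and Aplnr (-0.05), Igfbp3 (-0.06) and Ramp3 (-0.19) were below 0. On this scale the groups did not overlap for 5 genes, namely Esm1, Prnd, Kcne3, Plvap and Pde2a, and they did for Apln and Cxcr4. Of all genes, 0.42% lay without overlap and higher in anti-Ang2 tumours on this scale. The share of all genes above 0 on this scale was not computed. The relative values still hold the contrast used to choose the genes, so nothing is read from these counts. The values depend on the reference: against Pecam1, Cdh5, Kdr and Emcn alone they were 0.83 for Esm1, 0.64 for Prnd, 0.41 for Apln, 0.37 for Pde2a, 0.27 for Kcne3, 0.16 for Plvap and 0.12 for Cxcr4. Aplnr, Igfbp3 and Ramp3 then had -0.25, -0.26 and -0.39. Pecam1, Cdh5 and Kdr were themselves higher in anti-Ang2 tumours.

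**Figure D3:**
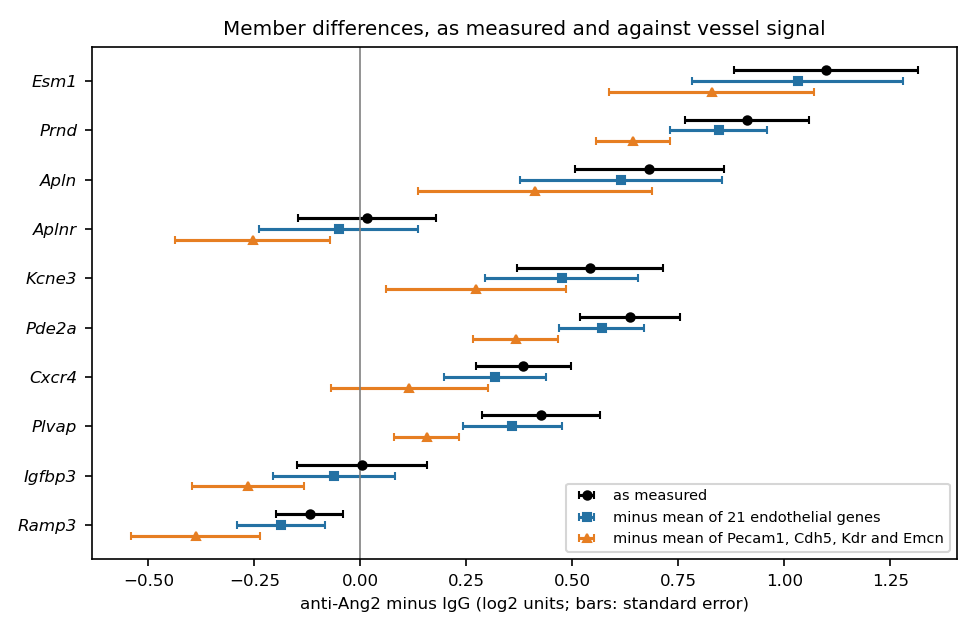
Difference between anti-Ang2 and IgG (horizontal axis, log2 units, bars are standard errors) of the 10 tip cell genes as measured (black), after subtracting the mean of 21 endothelial genes on each array (blue) and after subtracting the mean of Pecam1, Cdh5, Kdr and Emcn (orange). Esm1 and Prnd stay at 0.83 and 0.64 or more with either reference, while Plvap and Cxcr4 drop to 0.16 and 0.12 with the smaller one.

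The spread of the tumours inside each group is described next. A rank by p also uses the size of this spread, so it may have had a part in the choice of some of the genes. In either group replicate 2 was the low tumour: anti-Ang2 replicate 2 had the lowest value of its group for 6 genes (Esm1, Prnd, Kcne3, Plvap, Pde2a and Igfbp3), and IgG replicate 2 for 6 as well (Esm1, Apln, Prnd, Plvap, Pde2a and Igfbp3). These 2 tumours also had the lowest mean of the endothelial genes in their groups, at 6.84 and 6.88. Ramp3 was highest of its group in both.

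After subtracting the group means, 28 of the 45 pairs of tip cell genes correlated positively over the 8 tumours and 17 negatively, with a median Pearson's r of 0.21 (range -0.77 to 0.91). The highest pair was Esm1 and Igfbp3, with r = 0.91 (exact permutation p = 0.00868) and Spearman's rho = 0.90 (exact p = 0.0139), and r = 0.88 when the 2 tumours farthest from the median were left out. Prnd and Igfbp3 came next, with r = 0.89 (exact permutation p = 0.00694), rho = 0.88 (exact p = 0.0104) and r = 0.65 over the remaining 6 tumours. Esm1 and Pde2a had r = 0.88 (exact permutation p = 0.0278), rho = 0.69 (exact p = 0.0903) and r = 0.67 over 6 tumours. Values were permuted within groups, two-sided, over 576 arrangements. Of the 45 pairs, 7 had an exact p under 0.05 and 0 passed adjustment over the 45 (smallest adjusted exact p = 0.117 by r and 0.3125 by rho).

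Apelin and its receptor had r = -0.31 within the groups (exact permutation p = 0.344), rho = -0.21 (exact p = 0.622) and r = -0.42 over 6 tumours. Aplnr and Cxcr4 had the lowest correlation of the 45 pairs, at r = -0.77 (exact permutation p = 0.0434), rho = -0.79 (exact p = 0.0243) and r = -0.72 over 6 tumours, with an adjusted exact p of 0.279.

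The other 4 relations with marker lists that had an exact p under 0.05 by r concerned Ramp3, Plvap and Apln. Ramp3 had r = 0.80 with muscle (exact permutation p = 0.0399), rho = 0.83 (exact p = 0.0243) and r = 0.73 over 6 tumours, opposite in sign to Kcne3. With the endothelial mean, Ramp3 had r = -0.53 (exact permutation p = 0.0243), rho = -0.79 (exact p = 0.00868) and r = -0.72 over 6 tumours. Plvap had a positive value there, at r = 0.73 (exact permutation p = 0.0208), rho = 0.69 (exact p = 0.0938) and r = 0.36 over 6 tumours. Apln and the tissue handling genes had r = 0.54 (exact permutation p = 0.0434), rho = 0.60 (exact p = 0.115) and r = 0.66 over 6 tumours. None of the 70 passed adjustment by rho either (smallest adjusted exact p = 0.608).

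**Figure D4:**
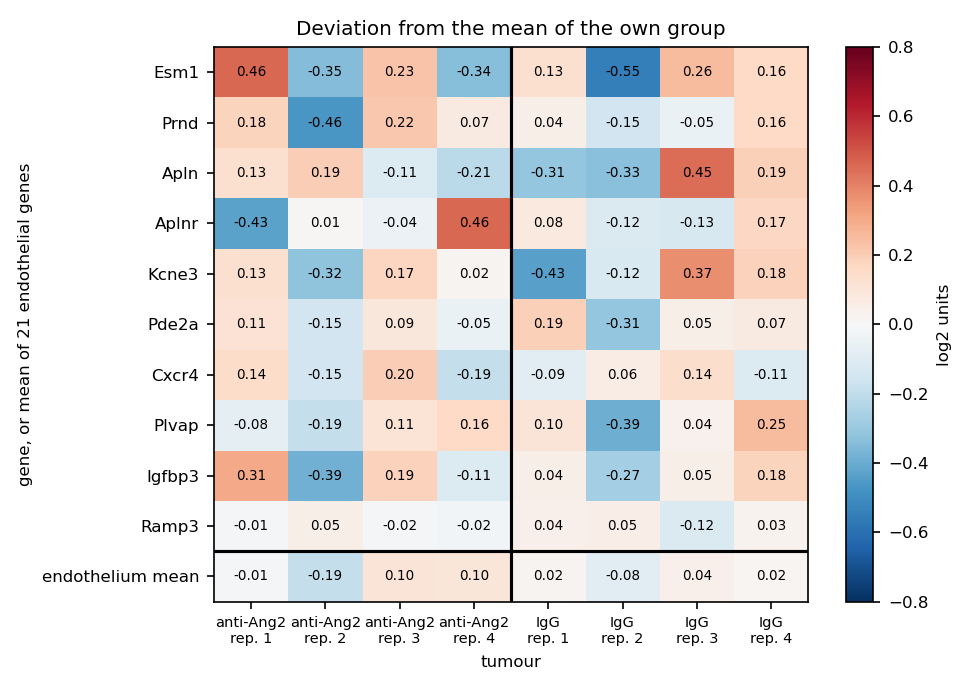
Deviation of each tumour (columns) from the mean of its own group, in log2 units by colour and number, for the 10 tip cell genes and, below the line, the mean of 21 endothelial genes. Replicate 2 of either group is blue for Esm1, Prnd, Plvap, Pde2a and Igfbp3, and for the endothelial mean (-0.19 and -0.08).

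Genes whose pattern within the groups was most like that of Esm1, Apln or Prnd were taken by Pearson's r over the 8 tumours among 10735 named genes above the median level, with no test. For Esm1 these were Ap5z1 (0.99), Igf2bp2 (0.98), Faf1 (0.98), the Wnt receptor gene Fzd7 (0.96) and Adgrl4, an endothelial adhesion receptor (0.95). For Apln they were Oca2, a melanosome transporter (0.996), Tmx1 (0.98), Bphl (0.98), Smpd1 (0.97) and Psmc2 (0.96), and for Prnd Pex13, Rabl3, Card14 and Mau2 (0.96 to 0.97) and Stmn1 (0.95). The highest of 10735 values of r over 8 tumours can be high through the picking alone, so no relation is read from them. None of the 15 genes passed between the groups, the lowest limma adjusted p being 0.701 for Adgrl4. Among all other genes ordered by likeness to Esm1, Igfbp3 ranked 49, Pde2a 117, Prnd 1336, Cxcr4 2579, Plvap 2645, Kcne3 3123 and Apln 3574 of 22839. Aplnr ranked 19897 (r = -0.46) and Ramp3 20100 (r = -0.47), near the opposite end.

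Of 21 other measured tip cell genes, 15 were higher and 6 lower in anti-Ang2 tumours, where 53.5% of all genes were higher. The median difference was 0.12, and 0 passed in limma. All anti-Ang2 tumours lay above all IgG tumours in 0 of the 21 (2.28% of all genes) and below them in 1 (1.46% of all genes). Leaving out IgG replicate 2 gave a median of 0.07, leaving out anti-Ang2 replicate 2 gave 0.20 and leaving out IgG replicate 1 gave 0.21. Pgf, the placental growth factor gene, had the largest difference at 0.78 (SE 0.25, limma adjusted p = 0.616). Adm, the adrenomedullin gene, stood at 0.45, the basement membrane gene Nid2 at 0.27 and Marcksl1, an actin regulator, at -0.28. Angpt2, itself a tip cell gene and the target of the antibody, had means of 9.23 ± 0.16 and 9.13 ± 0.17 (anti-Ang2 and IgG), a difference of 0.10 (limma adjusted p = 0.885).

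In the stalk and Notch list 7 of 10 genes were higher and 3 lower, with a median of 0.07, or 0.02 without anti-Ang2 replicate 4, and 0 passed in limma. Rbpj stood at 0.26 (adjusted p = 0.677), Hey2, a Notch target, at 0.18, Nrarp, a Notch feedback gene, at 0.11 and the receptor gene Notch1 at -0.46 (adjusted p = 0.737 in limma). Receptors, ligands and channel partners of the 10 genes were higher in 13 of 20 and lower in 7, with a median of 0.09, or 0.14 without anti-Ang2 replicate 4 and 0.23 where dim genes were left out, and again 0 passed. Vegfa, the inducer of tip cells, differed by 0.43 (SE 0.13), Cavin1, a caveolar coat protein, by 0.35 (SE 0.10) and Npr1, the natriuretic peptide receptor that makes cGMP, by -0.40 (SE 0.09; adjusted p = 0.460 in limma). Vegfa and Cavin1 lay higher in all 4 anti-Ang2 tumours than in any IgG tumour (2.28% of all genes did), and Npr1 lay lower (1.46% of all genes did).

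Markers of other signals were read beside these values. All 16 measured hypoxia genes were higher, with a median difference of 0.48 and list means of 9.51 ± 0.20 (anti-Ang2) and 9.03 ± 0.25 (IgG). Their summed linear intensity ran from 14909.7 to 21202 and from 9959.9 to 14223, and 1 of 16, Pdk1, lay below the median gene. Vegfa is in this list as well as among the partner genes. Apln, Cxcr4 and Vegfa are known to respond to low oxygen. They are given as examples, and the rest of the 10 genes were not sorted by such a response. Immediate early and tissue handling genes were higher in 11 of 12, with a median of 0.25 (0.18 to 0.35 with an array left out), and summed to 4424 to 7057 and 3989 to 5522. The part of these signals in the tip cell gene values was not tested. Skeletal muscle genes were lower in 16 of 16, and their sums overlapped, at 1066 to 3421 (anti-Ang2) and 1407 to 15987 (IgG). Their median difference was -1.29, or -0.79 without IgG replicate 1. Without that tumour the differences were 1.14 for Esm1, 0.93 for Prnd, 0.70 for Pde2a and 0.58 for Apln.

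Pericyte markers were higher in 7 of 8 with a median of 0.12, or 0.02 without anti-Ang2 replicate 4, and summed to 1659 to 2699.6 (anti-Ang2) and 1819 to 2853 (IgG). Lymphatic markers were lower in 4 of 5, with Pdpn, podoplanin, at 0.59 as the exception. As a check of the tumour label, the pigment genes Dct, Tyrp1 and Pmel stood at about percentile 99.6 of all gene means or higher, and Mlana at 92.0. Ret was the 1 of 8 markers below the median gene. Whether its probe set reads the ret transgene is not given in the sources used here.

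**Figure D5:**
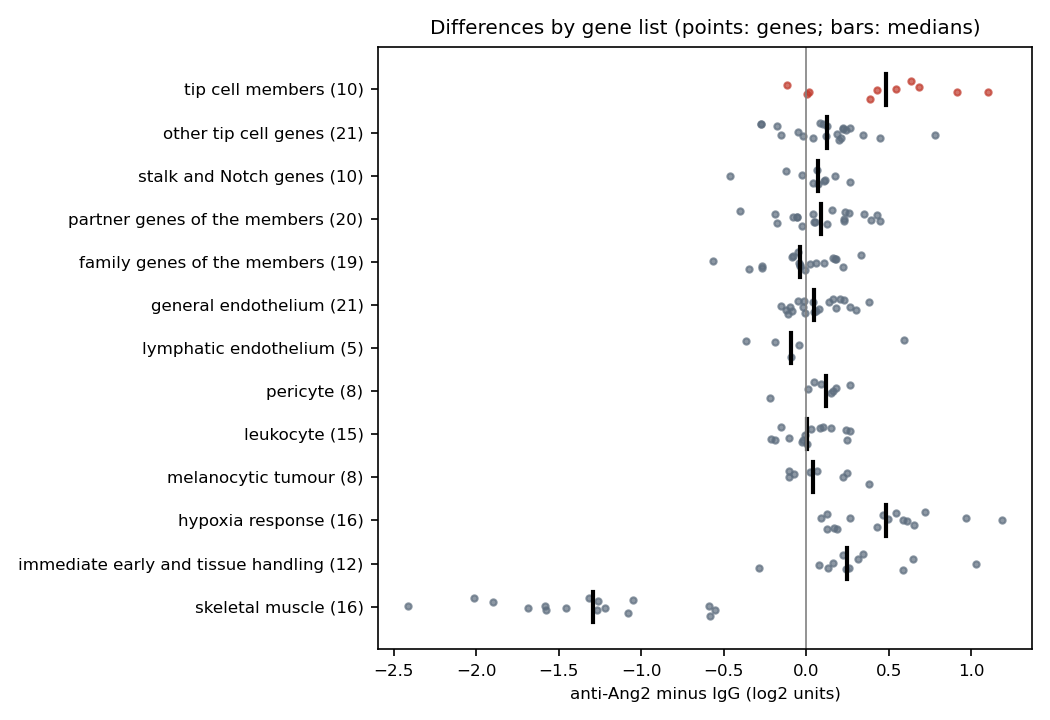
Difference between anti-Ang2 and IgG (horizontal axis, log2 units) of every measured gene in 13 lists, with the number of genes in parentheses; points are genes and bars list medians. The 10 tip cell genes have a median of 0.48, the 21 other tip cell genes 0.12, general endothelium 0.05, hypoxia genes 0.48 and skeletal muscle genes -1.29.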

How the data were processed

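Total RNA (250 ng per tumour) had been labelled with biotin and hybridised to Affymetrix whole-transcript arrays, per the labels' protocols. The authors deposited 1 normalized linear intensity per probe set and array; background correction and normalization are not given in the sources used here. The deposited table also holds a ratio of group means (fold) and a p-value per probe set, of which only the ratio is printed, for 3 genes.

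Of 24648 probe sets, 5 lacked values. Those with 1 gene symbol were kept (22840 genes) and symbols updated through Entrez IDs. Intensities were taken to log2 and compared by limma 3.58.1 in R 4.3.3 (lmFit, eBayes; 4.86 prior and 6 residual degrees of freedom; Benjamini-Hochberg). The number of arrays limits the precision (median SE 0.11). The procedure was tested on simulated data (22840 genes, 200 changed): 91.6% of genes changed by 1 log2 unit and 39.6% of those changed by 0.5 were recovered. False calls averaged 6.4 per run. Noise was drawn for each gene independently, without shifts that many genes of a tumour share, so these rates need not hold for the real tumours. Relative values subtract the endothelial list mean per array. Motifs were searched in RefSeq windows.

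The members and lists were chosen with earlier results of these data known. Named are the 10 genes, Angpt2, Tek, Pecam1, Cdh5, Kdr, up to 4 genes per list with the largest moderated t, and the 5 genes most like Esm1, Apln and Prnd; further markers (Cldn5, Icam2, Cd3e, Pdk1, Emcn, Ret) were named after their values were seen. Alternatives were quantile normalization, median centring, a filter on dim genes, other eBayes options, all probe sets, a replicate number block, linear ratios, another endothelial reference and each array left out.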

Additional observations from a re-analysis of the deposited data

Results flagged for a closer look

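In 3 of 20 groups of 4 values, 1 tumour stood apart by Dixon's ratio of its gap to the range of the group, where the limit is the 95% critical value and chance marks about 1 in 20 groups. Esm1 was low in IgG replicate 2 (ratio 0.843), and without that tumour the Esm1 difference was 0.92. Ramp3 was high in anti-Ang2 replicate 2 (ratio 0.874) and low in IgG replicate 3 (ratio 0.882), within group ranges of 0.07 and 0.17 log2 units.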

How the results depend on the processing

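The differences of the 10 tip cell genes moved by less than 1 SD between tumours under quantile normalization, median centring and linear ratios. The trend and robust options, the filter on dim genes and the replicate block cannot change a difference, only its SE. Of 159 recomputed values, among which these fixed differences are counted, 6 moved by more. One was Ramp3 with the endothelial mean subtracted (-0.19), and the other 5 were vessel-relative values with the 4-gene reference (Prnd 0.64, Pde2a 0.37, Plvap 0.16, Cxcr4 0.12 and Ramp3 -0.39). Esm1 ranged from 0.92 to 1.21 with an array left out, Prnd from 0.84 to 1.07, Apln from 0.57 to 0.83 and Pde2a from 0.53 to 0.70. The count of genes above 0 was 7 under quantile normalization and median centring, where Aplnr and Igfbp3 lay just below 0, and 7 to 9 with an array left out. The count of tip cell genes without overlap and higher was 5 to 7 with an array left out, where 3 values against 4 separate more often: the share of all genes was then 3.4% to 5.67%, and 4.08% without anti-Ang2 replicate 2, which gave the 7. The number of genes past an adjusted p of 0.05 over all genes was 0 to 1 with an array left out: without anti-Ang2 replicate 2 it was 1 gene, Prnd (limma adjusted p = 0.0333). The tumour left out there had the lowest Prnd value of its group. Prnd belongs to the genes chosen with this contrast known, so nothing is read from its p-value. The replicate block, which is balanced over the groups and so could not change the differences, gave 0 genes past the threshold. With it the SE went from 0.22 to 0.14 for Esm1 and from 0.18 to 0.19 for Apln. The SE also fell for Prnd (0.15 to 0.12), Plvap (0.14 to 0.10), Pde2a, Igfbp3, Aplnr, Kcne3 and Cxcr4, and it rose for Ramp3. Over all genes same-numbered tumours did not deviate together (correlations from -0.05 to 0.08), so the numbers were not taken as pairs. For several tip cell genes, however, replicate 2 was the low tumour of both groups. The share of promoter windows with the hypoxia core was 38.6% in the 250 bases before the start. The deposited values carry no background measure, so how far dim genes such as Ramp3 lie above background is unknown.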

Other observations

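Relatives of the tip cell genes in their own families were measured beside them. Of 19 such genes, 8 were higher and 11 lower in anti-Ang2 tumours, with a median of -0.04, or 0.03 without IgG replicate 1, and 0 passed in limma. Igfbp4, another carrier of insulin-like growth factors, had a difference of -0.57 (SE 0.23, limma adjusted p = 0.690), while Igfbp3 was level. The phosphodiesterase genes Pde10a (-0.35) and Pde1a (-0.27) had differences in the other direction from Pde2a (0.64), and the potassium channel subunit gene Kcne2 (0.33) in the same direction as Kcne3 (0.54).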
